A study of Mus musculus with 19 samples.

Results

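Transcripts of 9 genes used as markers of neural progenitors and neurons (Sox1, Pax6, Nes, Sox4, Sox11, Tubb3, Map2, Ncam1 and Hes5) were followed in mouse embryonic stem cells with and without the RNA-binding proteins Trim71 and Lin28a. The 9 genes were chosen by symbol, with earlier results of these data known, and all 9 were found among the 21685 genes of the deposited table. Of them, 8 were expressed highly enough to be tested, and Hes5 was not. When Lin28a was lost, Tubb3, Pax6, Map2 and Ncam1 rose whether Trim71 was present or not, by between 1.32-fold (Pax6 without Trim71, Ncam1 with Trim71) and 1.98-fold (Tubb3 without Trim71). Over all genes tested, Lin28a loss called 20.3% higher and 22.0% lower with Trim71 present, and 20.8% and 22.0% without it. Sox1 passed the test in no comparison, and Nes, Sox4 and Sox11 were lower in those comparisons where they passed. Loss of Trim71 called none of the 8 in the presence of Lin28a, against 11.2% of all genes tested. In the absence of Lin28a it called only Sox4, at a lower level, against 8.38% of all genes tested.

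All cells were male C57BL/6 embryonic stem cells grown in serum with leukaemia inhibitory factor, and were sorted on magnetic beads for the surface antigen SSEA-1 to remove cells that had differentiated in culture. In each genotype name the state of Trim71 comes before that of Lin28a. WT-WT cells were Trimfl/fl - Lin28afl/fl (4 libraries), KO-WT cells were Trim-/- - Lin28afl/fl (4 libraries used), WT-KO cells were Trimfl/fl - Lin28a-/- (5 libraries) and KO-KO cells were Trim-/- - Lin28a-/- (5 libraries). The Trim71 deletion was induced with 500 nM 4-hydroxytamoxifen for 2 days, followed by at least 7 days of further culture, and the protocol does not describe a matching drug treatment of the conditional cells. Each Lin28a state was represented by its own pair of clones, named 1 and E3 with Lin28a and 1-4 and C1 without it, so Lin28a genotype and clone cannot be told apart. Clones E3 and C1 carry days 2, 3 and 4 of the labels, and clones 1 and 1-4 carry days 1 and 5. Nothing in the labels says that libraries of 1 clone came from separate cultures beyond their day, so p-values measure the spread between these libraries.

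Neural cells arise from pluripotent cells through progenitors that turn on Sox1 and Pax6, transcription factors of the early neural plate, and Nes, which encodes the intermediate filament nestin. Notch signalling holds progenitors in an undifferentiated state through repressors such as Hes5, while proneural factors and then Sox4 and Sox11 promote neuronal genes. Tubb3 (a neuron-enriched beta tubulin), Map2 (which binds dendritic microtubules) and Ncam1 (a cell adhesion molecule) are read as signs of neuronal differentiation, though stem cells can carry transcripts of each at a low level. Lin28a blocks maturation of the microRNA let-7, which accumulates as stem cells differentiate, and Trim71 is itself a target of let-7.

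The series was titled for the effect of Trim71 on let-7, so the let-7 sequences and their matches in the 9 genes are shown before the expression values. In the RefSeq table (GRCm38.p6), 8 of 8 mature let-7 sequences of the 5p arm shared the same seed, the bases 2 to 8 that pair with a target. A few of them are printed 5′ to 3′ with the seed in capitals, since they show that family members differ outside it.
mmu-let-7a-5p: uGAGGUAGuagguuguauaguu
mmu-let-7d-5p: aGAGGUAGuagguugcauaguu
mmu-let-7g-5p: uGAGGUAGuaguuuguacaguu
The complement of this seed, CTACCTC, was searched on the sense strand of the longest 3′ untranslated region that GENCODE M21 (GRCm38) gives each gene. It was found in 0 of the 9 marker genes, and in 1353 of 12542 tested genes with such a region (10.8%). The regions searched in the markers ran from 391 bases (Tubb3) to 6957 bases (Sox11), with a median of 2590 against 1164 for the tested genes. The result says only that these letters do not occur in these annotated regions.

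The promoter of Tubb3, the marker with the largest differences, was read from the RefSeq promoter table for the same build. It is shown 5′ to 3′ on the plus strand with CATTGT, the core letters read by SOX factors, in capitals, and it stops before the gene start in GENCODE M21 so that no transcribed base is included.
Tubb3, chr8:123411303-123411423: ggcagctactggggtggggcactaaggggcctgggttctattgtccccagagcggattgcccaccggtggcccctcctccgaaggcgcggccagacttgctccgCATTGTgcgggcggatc
The motif was chosen after these letters had been seen. In the 250 bases before each RefSeq start, CATTGT on either strand was present in 3512 of 32851 promoter windows (10.7%) and in 2 of 8 markers with a window, Tubb3 and Hes5, each with 2 copies. Hes5 was near the lower end of the scale in every library, so the letters were present in both the most abundant and the least abundant of the 9 markers.

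The markers differed widely in level. Expressed per kilobase of exon, so that genes of different length can be compared, Tubb3 reached 150 ± 23.4 normalised units in WT-WT cells (SD, n = 4), above 86.0% of the 21001 genes with a known length. Sox11 followed at 54.2 ± 2.00 and Sox4 at 43.0 ± 3.93, and Nes stood at 25.7 ± 3.09, above 55.0% of genes. Sox1 (7.34 ± 0.276) and Ncam1 (7.23 ± 0.602) were closer to each other than their SDs. Map2 was at 3.00 ± 0.252, Pax6 at 1.02 ± 0.0711 and Hes5 at 0.680 ± 0.00981. Pax6 was thus above 9.58% of genes.

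**Figure D1:**
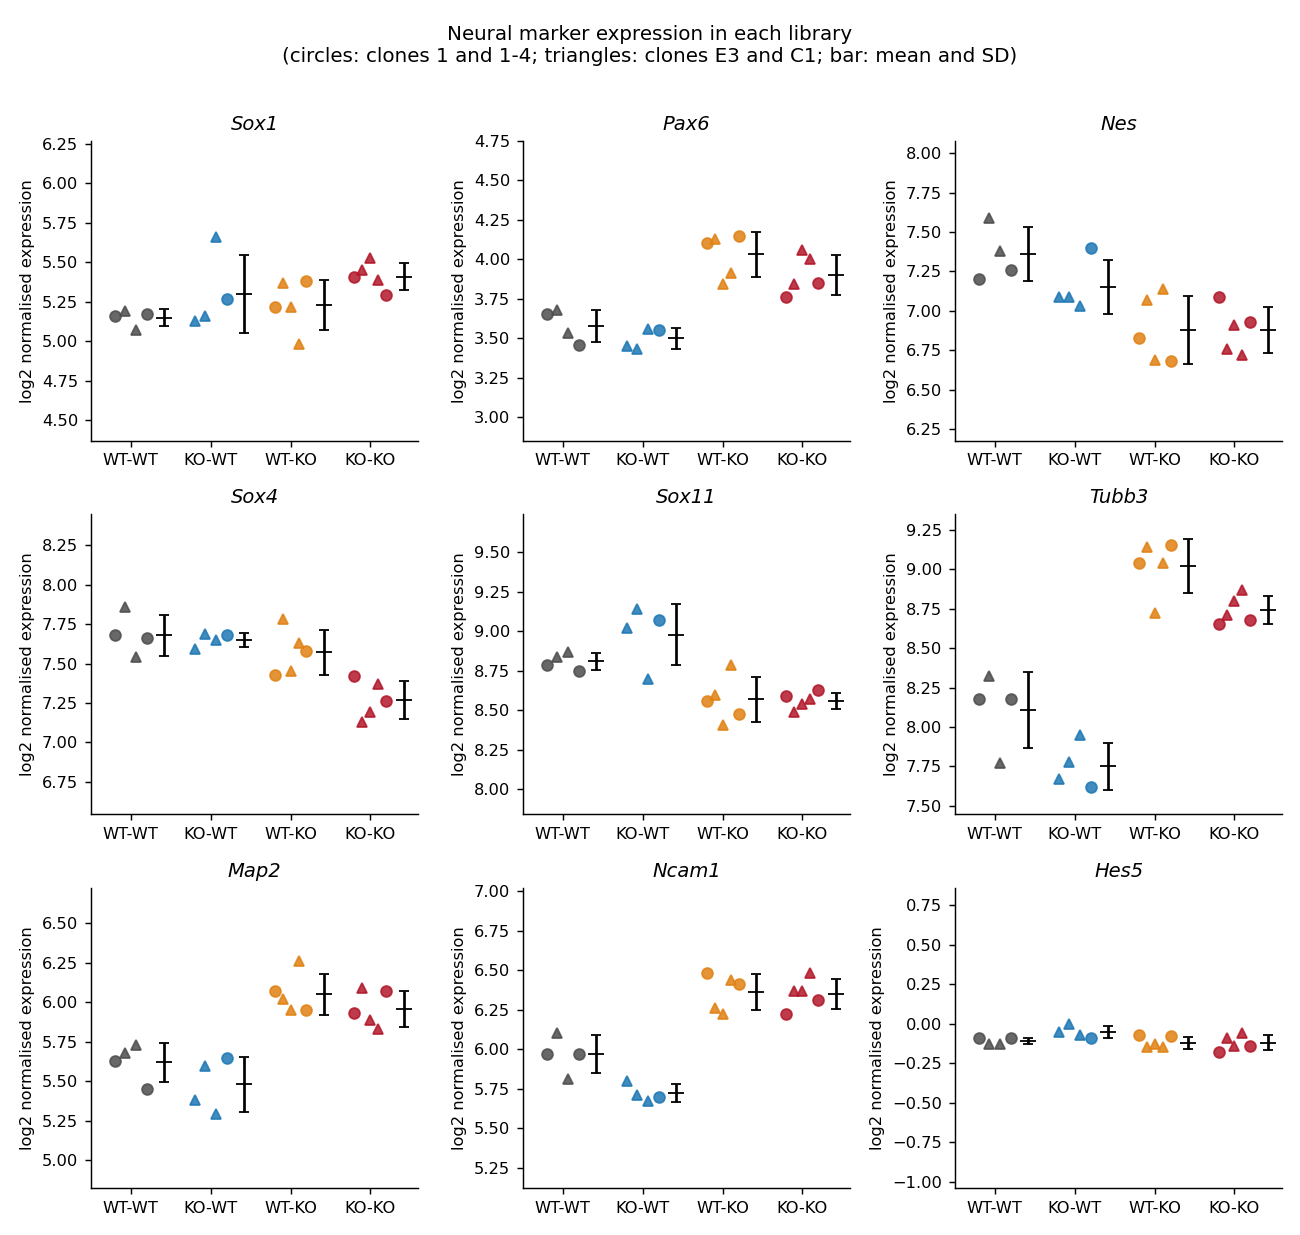
Deposited log2 normalised expression of the 9 markers in each of 18 libraries by genotype (Trim71 state first); every panel spans the same number of log2 units, circles are clones 1 and 1-4, triangles are clones E3 and C1, and the black bar is the mean and SD. Tubb3, Pax6, Map2 and Ncam1 are higher in every Lin28a-null library than in every Lin28a-intact one, Nes and Sox11 overlap, and Hes5 lies near 0 throughout.

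The targeted transcripts followed the labels: Trim71 lay between 8.77 and 9.55 on the log2 scale in the 9 Trim71-null libraries and at 10.04 or above in the others, and Lin28a between 8.21 and 8.57 in the 10 null libraries and between 9.74 and 10.26 in the others. Both remained measurable after deletion. Each also changed when the other gene was lost. For Trim71, WT-KO minus WT-WT gave 0.45 ± 0.111 log2 units (limma adjusted p 0.00431). KO-KO minus KO-WT gave 0.38 ± 0.111 (0.0111), with groups that overlapped. For Lin28a, KO-WT minus WT-WT gave -0.28 ± 0.0812 (limma adjusted p 0.036), again with overlap. Its difference in KO-KO minus WT-KO, -0.19 ± 0.0695 (0.0971), did not pass. Intact therefore names the genotype, not an unchanged transcript level. The stem cell label was checked on 16 pluripotency genes, all of them tested, whose summed level lay between 45996 and 64062 normalised units in every library.

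The first question was what loss of Lin28a does to these genes while Trim71 is present (WT-KO minus WT-WT). Of the 8 tested markers, 6 were called (limma, genotype and day, Benjamini-Hochberg adjusted p under 0.05 over 14988 genes), 4 higher and 2 lower. Over all genes tested, 42.4% were called in this comparison, 20.3% higher and 22.0% lower. The balance turned, from 3049 higher and 3302 lower to 3860 and 2805, after a correction for transcript GC content and length, and to 3344 and 2988 after scaling to the 75th percentile. The median log2 difference of the markers was 0.24, against -0.01 over all genes tested.

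Tubb3, the neuronal beta tubulin, had log2 values of 8.18, 8.32, 7.77 and 8.18 in WT-WT and of 9.04, 9.14, 8.72, 9.04 and 9.15 in WT-KO. The lowest WT-KO library was above the highest WT-WT library, so the groups did not overlap, as was so for 5 of the 8 markers and 40.8% of all genes tested. It rose by 0.90 ± 0.112 log2 units (SE), or 1.87-fold, with a limma adjusted p of 1.05e-05, and it was higher in 4 of 4 same-day pairs. Where groups do not overlap, all pairs must go the same way, so such a pair count adds no support. The call was kept when each clone pair was fitted alone, at 0.91 ± 0.0604 in clones 1 and 1-4 and 0.93 ± 0.168 in clones E3 and C1.

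Ncam1, the neural adhesion molecule, had values of 5.97, 6.10, 5.81 and 5.97 in WT-WT and of 6.48, 6.26, 6.22, 6.44 and 6.41 in WT-KO. Again no WT-KO library fell within the WT-WT range. The difference was 0.40 ± 0.0833 log2 units, 1.32-fold (limma adjusted p 0.00124).

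Map2, the dendritic microtubule protein, ranged from 5.45 to 5.73 in WT-WT and from 5.95 to 6.26 in WT-KO. It rose by 0.43 ± 0.102 log2 units (limma adjusted p 0.00298). The groups did not overlap, and the rise was therefore seen in 4 of 4 pairs.

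Pax6, the neural plate transcription factor, rose as well. Its WT-WT values were 3.65, 3.68, 3.53 and 3.46, close to the threshold of 3.32 for testing, and its WT-KO values were 4.10, 4.13, 3.84, 3.91 and 4.15. The groups did not overlap, and the difference was 0.45 ± 0.0918 log2 units, 1.36-fold (limma adjusted p 0.00102).

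Nes moved the other way. Its values were 7.20, 7.59, 7.38 and 7.26 in WT-WT and 6.83, 7.07, 6.69, 7.14 and 6.68 in WT-KO, with no overlap, and it fell by 0.48 on the log2 scale (SE 0.122, limma adjusted p 0.00485), 1.39-fold. Sox11, a transcription factor of newly born neurons, was lower by a difference of -0.25 ± 0.0862 (limma adjusted p 0.0298), with WT-KO libraries from 8.41 to 8.79 and WT-WT libraries from 8.75 to 8.87, which overlap. Sox1 differed by 0.09 ± 0.111 and Sox4 by -0.11 ± 0.0867, with adjusted p-values of 0.553 and 0.324. Their 95% intervals, -0.15 to 0.32 for Sox1 and -0.29 to 0.07 for Sox4, leave out a change of the size seen in Tubb3.

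In clones E3 and C1 alone, fitted on 11 libraries, only Tubb3 and Nes were called, while Pax6 (0.35 ± 0.131, limma adjusted p 0.0874), Ncam1 (0.35 ± 0.131, 0.0917), Map2 (0.36 ± 0.147, 0.119) and Sox11 (-0.26 ± 0.136, 0.213) kept their direction without passing. The Sox11 call was also lost in days 3, 4 and 5 alone (adjusted p 0.114) and in 6 of 18 fits that each left out 1 library, at adjusted p-values between 0.0548 and 0.0993: those without WT-WT replicate 1, 2 or 3 and those without WT-KO replicate 1, 3 or 5.

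**Figure D2:**
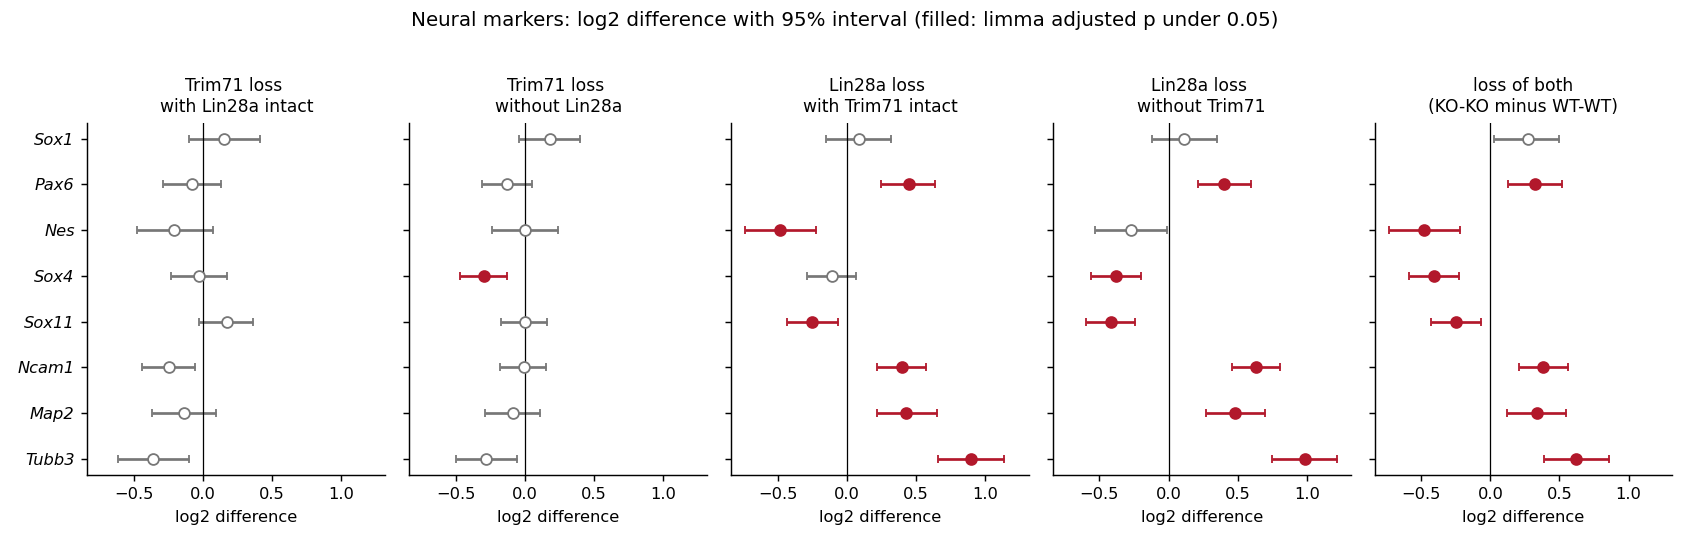
Log2 difference of the 8 tested markers in 5 comparisons with its 95% interval; filled points have a limma adjusted p under 0.05. Both comparisons of Lin28a loss show Tubb3, Map2, Ncam1 and Pax6 to the right of 0 and Sox11 to the left, and both comparisons of Trim71 loss show open points except Sox4.

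The same loss was then examined in cells that already lacked Trim71 (KO-KO minus KO-WT). This comparison uses none of the libraries of the preceding one. Both share clones, harvest days and 1 estimate of the spread, so a difference between the clones would enter both. Here 6 of the 8 markers were called, 4 higher and 2 lower, against 42.8% of all genes tested (20.8% higher and 22.0% lower). The GC and length correction turned the balance of all called genes here too, from 3120 higher and 3292 lower to 3707 and 2941. The marker median was 0.26 and that of all genes 0.00. The groups did not overlap for 6 of the 8 markers and for 40.7% of all genes.

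The 4 markers that rose with Trim71 present also rose without it. Tubb3 had values of 7.67, 7.78, 7.95 and 7.62 in KO-WT and of 8.65, 8.71, 8.80, 8.87 and 8.68 in KO-KO, so the highest KO-WT library lay well below the lowest KO-KO one. Its difference was 0.99 ± 0.112 log2 units, 1.98-fold (limma adjusted p 4.20e-06). Ncam1 had values of 5.80, 5.71, 5.67 and 5.70 in KO-WT and of 6.22, 6.37, 6.37, 6.48 and 6.31 in KO-KO. It rose by 0.63 ± 0.0833, 1.55-fold (limma adjusted p 1.88e-05), and the 2 groups were well apart. Map2 was higher by 0.48 ± 0.102 (limma adjusted p 0.00128) and Pax6 by 0.40 ± 0.0918 (adjusted p 0.00218), both without overlap and therefore in 4 of 4 pairs.

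Sox4 and Sox11, the pair of SoxC factors, were the markers that fell. Sox11 had values of 9.02, 9.14, 8.70 and 9.07 in KO-WT and of 8.59, 8.49, 8.54, 8.57 and 8.63 in KO-KO, and fell by 0.42 on the log2 scale (SE 0.0862, limma adjusted p 0.00107). KO-WT replicate 3, at 8.70, was the library nearest to the KO-KO range. Sox4 had values of 7.59, 7.69, 7.65 and 7.68 in KO-WT and of 7.42, 7.13, 7.19, 7.37 and 7.26 in KO-KO, and fell by 0.38 (SE 0.0867, limma adjusted p 0.00228). Nes differed by -0.27 ± 0.122 (limma adjusted p 0.0846), with groups that overlapped, and Sox1 by 0.11 ± 0.111 (adjusted p 0.446). Nes passed without KO-KO replicate 1 (-0.32, adjusted p 0.0443), without the harvest day in the fit (0.0382) and in the fit of the compared genotypes alone (0.00343), and Sox1 passed without KO-WT replicate 3, which had its highest value at 5.66 (0.27, adjusted p 0.0225).

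Sox4 shares 2616 exon bases with Gm26735, a gene on the opposite strand, and the library kit named in the labels does not mark strand. Reads of these genes cannot be told apart there. Gm26735 lay between 7.10 and 7.26 in KO-WT and between 6.65 and 6.90 in KO-KO, thus lower in the same libraries. Ncam1 shares 417 exon bases with the opposite-strand gene Gm11149, which lay between 3.35 and 3.84 in KO-WT and between 3.80 and 4.00 in KO-KO.

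**Figure D3:**
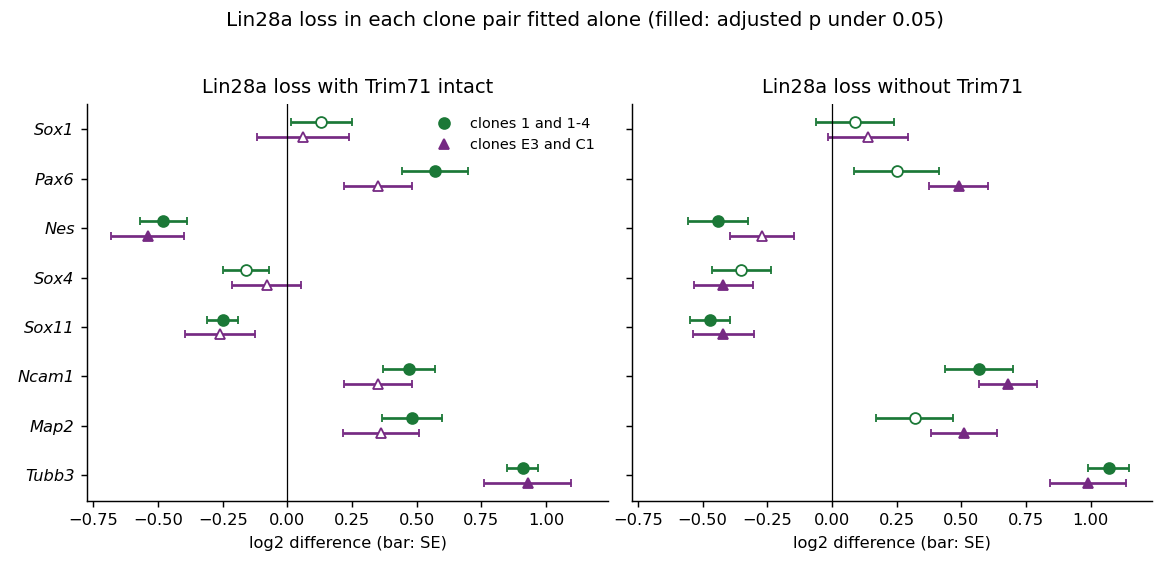
Log2 difference after Lin28a loss for the 8 tested markers, with each clone pair fitted alone (circles: clones 1 and 1-4; triangles: clones E3 and C1; bars: SE; filled: limma adjusted p under 0.05). Both pairs give the same sign for every marker in both panels, and Tubb3 is filled in all 4 cases.

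In both clone pairs the sign of the difference was the same for each of the 8 markers, in either Trim71 state. Without Trim71, the clones 1 and 1-4 hold 1 KO-WT library, which the fit takes to vary like the other genotypes. There, Pax6 (0.25 ± 0.163, limma adjusted p 0.342), Map2 (0.32 ± 0.150, 0.183) and Sox4 (-0.35 ± 0.115, 0.0768) did not pass, and Nes did (-0.44 ± 0.117, 0.0367).

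Whether Lin28a loss had a different effect with and without Trim71 was tested as an interaction. It called 0 of the 8 markers (limma, genotype and day) and 0.02% of all genes tested, which is 3 genes. At an unadjusted p under 0.05 there was 1 marker, Sox4 (-0.27 ± 0.123, p 0.0436, adjusted p 0.326). The 95% intervals were wide beside the differences themselves: -0.25 to 0.42 for Tubb3 and -0.02 to 0.49 for Ncam1. Equal effects in both Trim71 states were therefore not shown, and neither were unequal ones.

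Loss of Trim71 while Lin28a was intact (KO-WT minus WT-WT) asks for its part alone. None of the 8 markers was called by limma, against 11.2% of all genes tested, and 2 had an unadjusted p under 0.05. Tubb3 had the largest difference, -0.36 ± 0.121 log2 units (adjusted p 0.0631), with overlapping groups, because WT-WT replicate 3, at 7.77, lay inside the KO-WT range of 7.62 to 7.95. Without that library the difference was -0.53 and its adjusted p was 0.00709, and without WT-KO replicate 3 the adjusted p was 0.0317. In clones 1 and 1-4 alone, where KO-WT is 1 library, Tubb3 differed by -0.59, with a spread taken from the other genotypes. It passed after the GC and length correction (-0.46, limma adjusted p 0.0204). Without the harvest day in the fit, where the degrees of freedom are overstated, Tubb3 and Ncam1 were called, at adjusted p-values of 0.0149 and 0.0160. Ncam1 differed by -0.25 ± 0.0900 (limma adjusted p 0.0825) and was the only marker whose 2 groups did not overlap, as did 28.2% of all genes tested. Sox11 differed by 0.17 ± 0.0932 and Sox1 by 0.15 ± 0.120, with adjusted p-values of 0.249 and 0.415. Sox11 passed without KO-WT replicate 3 (0.30, adjusted p 0.0255). The remaining differences ran from -0.21 (Nes) to -0.03 (Sox4).

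Once Lin28a was absent, loss of Trim71 (KO-KO minus WT-KO) called 1 of the 8 markers, against 8.38% of all genes tested. This was Sox4, with values of 7.43, 7.78, 7.45, 7.63 and 7.58 in WT-KO and of 7.42, 7.13, 7.19, 7.37 and 7.26 in KO-KO. The highest KO-KO library was just under the lowest WT-KO one, which no other marker showed and 12.6% of all genes did, and the difference was -0.30 ± 0.0802 (limma adjusted p 0.0302). It did not pass in either clone pair alone (-0.39 ± 0.115, adjusted p 0.151, in E3 and C1, and -0.16 ± 0.0894, 0.396, in 1 and 1-4) nor in 6 of 18 fits that left out 1 library (without WT-KO replicate 2, 4 or 5, or KO-KO replicate 2, 3 or 5, adjusted p from 0.0632 to 0.115). Tubb3 differed by -0.28 ± 0.104 (limma adjusted p 0.115) and passed without WT-KO replicate 3, its lowest WT-KO library (-0.38, 0.0226), and without WT-WT replicate 3 (0.0312). It also passed in clones 1 and 1-4 alone (-0.43, limma adjusted p 0.0133), where it was the 1 marker called, and without the harvest day in the fit (0.0445). Sox4 was not called in days 3, 4 and 5 alone (0.155) or in the fit of the compared genotypes alone (0.0647). For Nes the 95% interval ran from -0.24 to 0.24, and for Ncam1 from -0.18 to 0.15.

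Cells without either gene were compared with WT-WT, a comparison that shares its libraries with those above and adds no independent evidence. Here 7 of the 8 markers were called, 4 higher and 3 lower, against 45.6% of all genes tested (21.0% higher and 24.6% lower). The groups did not overlap for any of the 8, nor for 44.5% of all genes. Tubb3 was higher by 0.62 ± 0.112 (1.54-fold, limma adjusted p 0.000320), Ncam1 by 0.38 ± 0.0833, Map2 by 0.34 ± 0.102 and Pax6 by 0.32 ± 0.0918. Nes (-0.48 ± 0.122), Sox4 (-0.41 ± 0.0867) and Sox11 (-0.25 ± 0.0862) were lower. Sox1 had values of 5.16, 5.19, 5.07 and 5.17 in WT-WT and of 5.41, 5.45, 5.53, 5.39 and 5.29 in KO-KO. These did not overlap, yet the difference of 0.27 ± 0.111 had a limma adjusted p of 0.0617. It passed without KO-WT replicate 3 (0.0159), WT-KO replicate 2 (0.0484) or WT-KO replicate 4 (0.0348). The call of Sox11 was lost without WT-WT replicate 2 (0.0680), WT-WT replicate 3 (0.0749) or KO-KO replicate 3 (0.0539), and that of Map2 without WT-WT replicate 4 (0.0670). With a clone pair fitted alone, Pax6 passed in neither (adjusted p 0.0784 in E3 and C1, 0.166 in 1 and 1-4), nor did Sox11 (0.112 and 0.0672). Nes (0.0906) and Ncam1 (0.0552) did not pass in clones 1 and 1-4, and Map2 did not pass in E3 and C1 (0.321). In days 3, 4 and 5 alone, Map2 (0.0990) and Sox11 (0.141) did not pass. The correction for GC content and length changed the balance of all called genes to 3907 higher and 2958 lower, from 3143 and 3691.

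Other genes of the neuronal programme were taken from a list of 52 proneural and neuronal genes that held none of the 9. Of its 34 tested members, 17 rose and 3 fell after Lin28a loss with Trim71 intact (median log2 difference 0.27), and 18 rose and 4 fell without Trim71 (median 0.23), beside the shares of all genes given above. The largest rises with Trim71 intact were in Ina, a neuronal intermediate filament (0.74 ± 0.121, limma adjusted p 0.000156), and Stmn2, a tubulin-binding protein of growing axons (0.65 ± 0.0568, 2.55e-07). Without Trim71 they were in L1cam, an axonal adhesion molecule (0.73 ± 0.124, 0.000192), and Rest (0.73 ± 0.0571, 6.91e-08), whose product is a repressor of neuronal genes.

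The 3 genes of this list that fell after Lin28a loss with Trim71 intact were Insm1, Neurod1 and Syp, a synaptic vesicle protein (-0.27 ± 0.0698, limma adjusted p 0.00530), named after its value was seen. Insm1, a zinc finger factor of neuronal and endocrine precursors, ranged from 7.36 to 7.58 in WT-WT, from 6.96 to 7.29 in KO-WT, from 6.71 to 7.20 in WT-KO and from 5.96 to 6.38 in KO-KO. The KO-KO libraries were the lowest of the 4 genotypes and did not overlap any other. Insm1 differed by -0.57 ± 0.114 after Lin28a loss with Trim71 intact (limma adjusted p 0.000797), by -0.75 ± 0.106 after Trim71 loss without Lin28a (0.000446) and by -1.32 ± 0.114 after loss of both (1.74e-07). Trim71 loss alone gave -0.35 ± 0.123 (limma adjusted p 0.0726). Neurod1, a proneural bHLH factor, fell by 0.42 on the log2 scale after Lin28a loss with Trim71 intact (SE 0.116, adjusted p 0.00831) and by 0.97 after loss of both (SE 0.116, 6.75e-06). Neurog1, of the same protein class, fell by 0.58 after Trim71 loss without Lin28a (SE 0.101, limma adjusted p 0.00229).

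Trim71 loss called 0 higher and 2 lower of the 34 with Lin28a intact (4.74% and 6.43% of all genes) and 1 higher and 7 lower without it (4.26% and 4.12%), with list medians of -0.04 and -0.16. The 2 lower genes with Lin28a intact were Dpysl3 (-0.43 ± 0.0639, limma adjusted p 0.000999) and Map1b (-0.32 ± 0.0903, 0.0346), both of which act on the axonal cytoskeleton. The 1 higher gene was Map1a (0.38 ± 0.0762, 0.00596). The interaction called 0 of the 34 by limma.

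**Figure D4:**
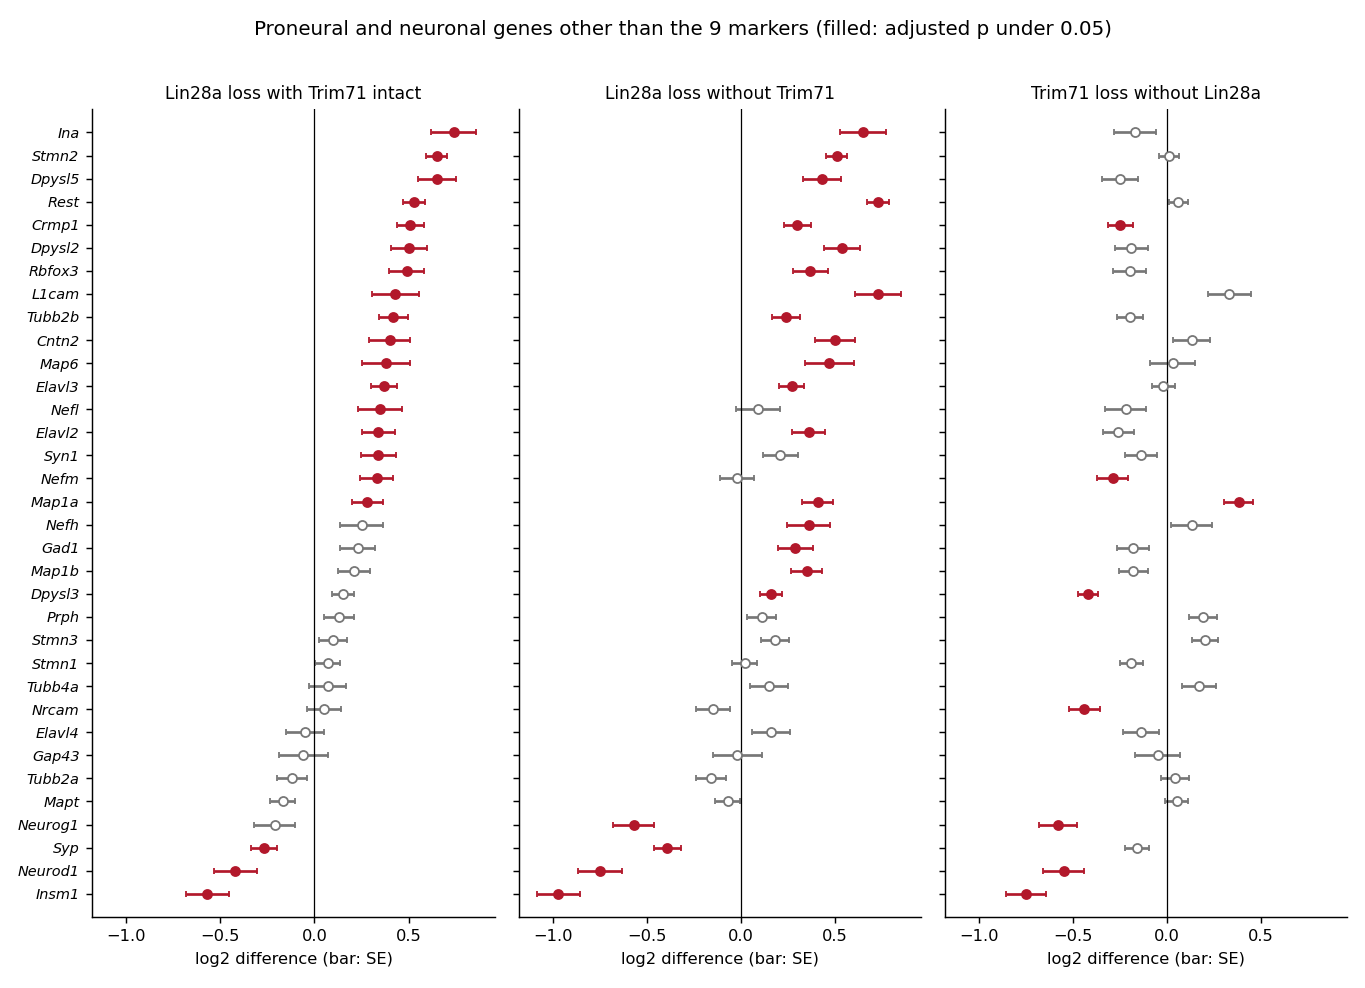
Log2 difference with SE for the 34 tested proneural and neuronal genes, in the order of their difference after Lin28a loss with Trim71 intact; filled points have a limma adjusted p under 0.05. In the left panel 17 genes are filled to the right of 0 and 3 to the left, led by Ina and by Insm1; in the right panel, Trim71 loss without Lin28a, 7 are filled to the left and 1 to the right.

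The neural progenitor list, 44 genes of which 25 were tested, had no such lean: 8 rose and 8 fell after Lin28a loss with Trim71 intact (median -0.03), and 6 rose and 10 fell without Trim71 (median -0.07). The shares of all genes tested were 20.3% higher and 22.0% lower with Trim71 intact, and 20.8% and 22.0% without it. Zic2, a zinc finger factor of the neural plate, rose by 0.64 ± 0.128 and 0.72 ± 0.128, with limma adjusted p-values of 0.000817 and 0.000297. Meis1, a homeobox cofactor, fell by 1.22 and 1.14 on the log2 scale (SE 0.114 in each, adjusted p 5.26e-07 and 1.05e-06), and Otx2, of anterior epiblast and forebrain, fell by 0.90 with Trim71 intact (SE 0.136, 7.27e-05). Sox9, Hes3, Zic1, Rax and Dach1 were below 1 on the log2 scale in every library.

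Hes5 is a direct output of Notch signalling, and its group means lay between -0.12 and -0.05 on the log2 scale, under 1 normalised unit, in all 4 genotypes. No fold is given for it. The Notch list was examined for genes other than Hes5, and 27 of 30 were tested. After Lin28a loss 10 rose and 5 fell with Trim71 intact, and 8 rose and 5 fell without it, with medians of 0.07 and 0.04. Over all genes tested, 20.3% were called higher and 22.0% lower with Trim71 intact, and 20.8% and 22.0% without it. Among the receptors, Notch4 rose by 1.03 ± 0.105 (limma adjusted p 1.23e-06) and Notch1 by 0.48 ± 0.0679 (3.91e-05) with Trim71 intact. Among the nuclear factors, Hes1, a Notch target related to Hes5, was higher after Trim71 loss both with Lin28a (0.33 ± 0.0844, 0.0233) and without it (0.30 ± 0.0723, 0.0191). Hes1 was also higher after Lin28a loss with Trim71 (0.37 ± 0.0781, limma adjusted p 0.00139) and without it (0.33 ± 0.0781, 0.00289), and after loss of both (0.66 ± 0.0781, 5.51e-06). Nrarp, of the same list, was lower after Lin28a loss with Trim71 (-0.33 ± 0.0922, limma adjusted p 0.00811) and without it (-0.49 ± 0.0922, 0.000481). Hes6, an inhibitor of Hes1, ranged from 8.37 to 8.71 in WT-WT and from 7.21 to 7.62 in KO-KO and fell by 1.22 after loss of both (SE 0.0972, limma adjusted p 7.59e-08). The ligand Dll1 was lower after Trim71 loss both with Lin28a (-0.44 ± 0.112, 0.0229) and without it (-0.60 ± 0.0959, 0.00115). The ligand Dll3 differed by -0.23 ± 0.0856 (0.0915) with Lin28a and was lower without it (-0.62 ± 0.0733, 0.000108).

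Relatives of the members in their own gene families did not all follow them. These family lists share genes with the neuronal and progenitor lists, such as Ina, Tubb2b, Vim and Sox21, so their counts are not separate evidence. For comparison, Lin28a loss called 20.3% of all genes tested higher and 22.0% lower with Trim71 intact, and 20.8% and 22.0% without it. Of 14 tested beta tubulins and microtubule-associated proteins, 4 rose and 1 fell after Lin28a loss with Trim71 intact, where Tubb2b rose by 0.42 ± 0.0745 (limma adjusted p 0.000347) and Tubb6 fell by 0.56 (SE 0.0549, 9.14e-07). Of 8 tested intermediate filaments, 3 rose and 2 fell in the same comparison: the neuronal filament genes Ina and Nefl (0.35 ± 0.117, adjusted p 0.0234) were among the 3, and the 2 were Vim (-0.64 ± 0.0725, 3.96e-06) and Des (-0.60 ± 0.0794, 2.18e-05). Nes, itself a filament gene of progenitors, was lower like Vim. Of 8 tested Sox genes, 6 rose and 1 fell with Trim71 intact, led by Sox21 (0.51 ± 0.121, 0.00322) and with Sox7 lower (-0.27 ± 0.101, 0.0417). Without Trim71, 2 of these 8 rose and 0 fell, and Sox21 differed by 0.17 ± 0.121 (limma adjusted p 0.264). There, 5 tubulin and microtubule genes rose and 2 fell, and 3 filament genes rose and 2 fell.

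The cultures differed in markers of other cell types between the Lin28a states, and their part in the results for the neural markers was not tested. In bulk RNA, fewer cells of a type and less RNA per cell cannot be told apart. Calls in this paragraph are for Lin28a loss with Trim71 intact, where 20.3% of all genes tested were higher and 22.0% lower. Pluripotency genes summed to between 45996 and 51811 normalised units in the Lin28a-intact libraries and to between 57074 and 64062 in the null ones, with 13 of 16 called higher and 1 lower after Lin28a loss with Trim71 intact (Nanog 0.86 ± 0.0772, limma adjusted p 3.44e-07). Formative and primed epiblast genes summed to between 7705 and 9550 with Lin28a and to between 4887 and 6860 without it, with 0 of 7 called higher and 6 lower. The trophectoderm list, 9 tested genes, summed to between 4881 and 6417 with Lin28a and to between 1114 and 1528 without it, with 0 higher and 7 lower, led by Krt8 (-4.22 ± 0.152, 1.66e-11), while Elf5 was below 1 on the log2 scale in WT-WT, WT-KO and KO-KO. Primitive endoderm genes summed to between 8844 and 11071 with Lin28a and to between 3779 and 5217 without it, with 0 of 8 higher and 8 lower. The fibroblast list (5 tested, 0 higher and 3 lower) summed to at most 269, the mesoderm list (4 tested, 0 and 2) to at most 231, and the neural crest and glia list (5 tested, 2 and 3) to between 1117 and 1502.

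**Figure D5:**
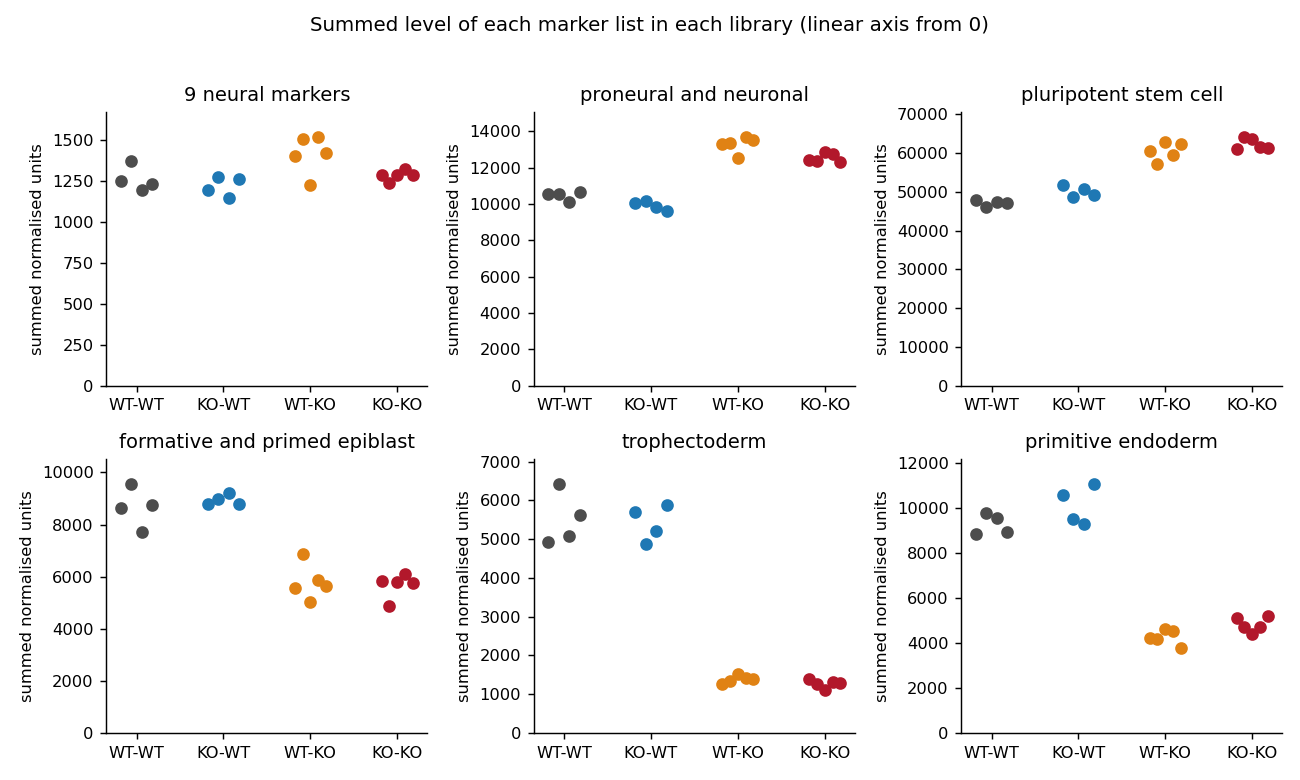
Summed normalised units (2 raised to the deposited value, added over the genes of a list) in each library by genotype, on a linear axis from 0, for the 9 neural markers and 5 lists. Trophectoderm, primitive endoderm and epiblast sums are lower and pluripotency and neuronal sums higher in the Lin28a-null libraries, and the sum of the 9 markers, 1148 to 1518 units, overlaps between genotypes. The neuronal sum includes Rest, whose product represses neuronal genes. Rest had mean log2 values of 11.11 in WT-WT, 10.97 in KO-WT, 11.64 in WT-KO and 11.70 in KO-KO.

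The genes whose pattern was most like that of each marker were found by the smallest root mean square difference of centred log2 values over the 18 libraries. For Tubb3 this was Gdf3, a secreted factor of pluripotent cells, at 0.117 log2 units, against a spread of Tubb3 about its own mean of 0.517. Gdf3 had means of 9.16, 8.90, 10.17 and 9.87 in WT-WT, KO-WT, WT-KO and KO-KO. The second was Ubap1l at 0.145. For the others the nearest was Prph for Sox1 (0.0775), Bak1 for Pax6 (0.0763), Map4k5 for Nes (0.0876), Chpf for Sox4 (0.0923), Gm29050 for Sox11 (0.0852), Setbp1 for Map2 (0.0887) and 1700063H04Rik for Ncam1 (0.0875). No other of the 9 markers was among the 2 nearest genes of any marker.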

How the data were processed

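The deposited table holds log2 normalised expression for 21685 genes in 19 libraries; the scale was read from the values, and library depth is unknown. Per the submitters' processing notes, CASAVA 1.8, STAR and DESeq2 were used, without stated roles; the build and annotation are not given in the sources used here. Harvest-day differences had been removed from the deposited values: a day term fitted to each gene reached at most 1.7e-08, and 1.69 with days shuffled within genotype. Day pairs the libraries, as the labels give it; same-day correlation cannot be checked on such values. KO-WT replicate 5, alone in its day, matched the average of its 4 sister libraries within 1.5e-08 and was left out, which left 18 libraries.

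Genes at or above 3.32 (log2 of 10) in at least 4 libraries (14988, 69.1%) were fitted with limma 3.58.1 in R 4.3.3 (genotype and day, eBayes with trend, 10 residual degrees of freedom), with Benjamini-Hochberg adjustment over all of them. In simulated data for Trim71 loss with Lin28a intact, with 200 of 14988 genes changed by 1 log2 unit, the fit found 100% of them and 5.29% of its calls were wrong (32.1% if day was omitted). The simulated noise was independent between libraries and held no clone differences. Marker differences in this comparison ran from -0.36 to 0.17. The simulation therefore does not show how often changes of that size would be found. Symbols were matched to GENCODE M21 for 96.8% of genes and 9 of 9 markers.

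The 9 markers and the lists were chosen with earlier results of these data known. Lists share genes, such as Hes1 in the Notch and progenitor lists and Otx2 in the progenitor and epiblast lists, so their counts are not independent. Named besides the markers and targeted genes are up to 2 higher and 2 lower called genes per list and comparison by size, with their values in other comparisons, and the tested genes most alike in pattern. Alternatives were no day term, no filter, scaling to the 75th percentile, each clone pair, days 3, 4 and 5 alone, a GC and length correction, only the genotypes compared, and each library left out.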

Additional observations from a re-analysis of the deposited data

Results flagged for a closer look

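Within the 36 groups of 4 or 5 libraries formed by 9 markers and 4 genotypes, 2 held a library far from the others. Chance alone flags about 1 in 20 groups of independent libraries. Removal of the day differences ties same-day libraries to each other, so that rate is only approximate here. Nes in KO-WT replicate 4 was at 7.40, while the next highest KO-WT library was at 7.09. Tubb3 in WT-KO replicate 3 was at 8.72, while the next lowest WT-KO library was at 9.04. Neither library set the direction of a called difference: Tubb3 remained higher in WT-KO than in WT-WT in each of the 18 fits that left out 1 library.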

How the results depend on the processing

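Tubb3 kept its 3 calls after Lin28a loss and after loss of both under each alternative run. Leaving out the replicate block (the shared day) gave 2 called markers for Trim71 loss with Lin28a and 2 without, in place of 0 and 1, and moved no other marker count by over 1.5 times; that fit overstates the degrees of freedom. Clones 1 and 1-4 alone gave 1 for Trim71 loss without Lin28a (Tubb3 in place of Sox4) and 3, in place of 7, for loss of both. With Lin28a, Tubb3 differed there by -0.59, where KO-WT is 1 library. Clones E3 and C1 alone gave 0 for Trim71 loss without Lin28a, 2 in place of 6 for Lin28a loss with Trim71, and 4 for loss of both. The GC and length correction gave 1 for Trim71 loss with Lin28a (Tubb3). Days 3, 4 and 5 alone, and only the genotypes compared, each gave 0 for Trim71 loss without Lin28a. Without 1 library, counts ran from 0 to 1 and from 0 to 2 for Trim71 loss with and without Lin28a. The cause was not tested; the clone, day and genotype subsets hold fewer libraries.

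No called difference changed sign. Differences that passed neither before nor after turned as follows. Clones 1 and 1-4 alone gave, for Trim71 loss with Lin28a, Pax6 0.001, Nes 0.212, Sox4 0.020 and Map2 0.142; without Lin28a, Sox11 0.089; and for the interaction, Sox1 -0.047 and Map2 -0.155. Clones E3 and C1 alone gave, without Lin28a, Pax6 0.004, Nes -0.165 and Ncam1 0.099, and for the interaction, Pax6 0.132. Days 3, 4 and 5 gave, without Lin28a, Pax6 0.001, Sox11 0.023 and Ncam1 0.034, and for the interaction, Sox1 -0.011, Pax6 0.049 and Map2 -0.019. The GC and length correction gave Nes -0.019 without Lin28a and Map2 -0.103 for the interaction. With each library left out, ranges that crossed 0 were, for Trim71 loss with Lin28a, Sox1 -0.020 to 0.227 and Sox4 -0.100 to 0.055; without it, Nes -0.075 to 0.091, Sox11 -0.059 to 0.069 and Ncam1 -0.061 to 0.038; and for the interaction, Sox1 -0.061 to 0.198, Pax6 -0.107 to 0.014, Tubb3 -0.019 to 0.254 and Map2 -0.043 to 0.137.

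Counts over all genes moved by over 1.5 times as follows. For Trim71 loss with Lin28a, 1674 became 4219 without the replicate block, 10 and 344 in the E3 and C1 and the 1 and 1-4 clones, 474 in days 3, 4 and 5, 30 with only the genotypes compared, and 528 to 1978 without 1 library. Without Lin28a, 1256 became 2618, 153, 287, 217, 794 and 676 to 1392. Clones E3 and C1 alone gave 2323, 3595 and 2668 in place of 6351, 6412 and 6834 for Lin28a loss with and without Trim71 and loss of both, and clones 1 and 1-4 gave 2293 for the second. The interaction count of 3 became 673 without the replicate block, 1 in clones E3 and C1, 0 in clones 1 and 1-4, in days 3, 4 and 5 and after the GC and length correction, and 0 to 4 without 1 library.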
